A study of Mus musculus with 2 samples.

Results

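Among satellite cells sorted from regenerating mouse muscle, 82 of 3287 cells carried high levels of a small set of interferon-induced transcripts, and these interferon-responding cells are described here. A barcode counted as a cell from 1000 unique molecular identifiers (UMIs, each standing for 1 captured transcript) and 500 detected genes upward, with mitochondrial UMIs at 10% or less. Per 10000 UMIs of the cell, the macrophage genes Lyz2, C1qa, C1qb and Tyrobp together had to stay under 10 and the mural cell genes Rgs5, Myh11 and Kcnj8 together under 5. Of the cells passing those limits, members were chosen by their measured levels: they are the ones in which Ifit1, Ifit3, Rsad2, Iigp1, Gbp2 and Cxcl10 (the 6 rule genes) summed to at least 10 per 10000 UMIs. The GFP+ library gave 10 members and 519 other cells, and the GFP− library gave 72 members and 2442 other cells; other cells met every limit but the last.

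Interferons are secreted proteins that signal through surface receptors and JAK kinases. Type I interferons activate transcription factors that bind the interferon-stimulated response element (ISRE), whereas interferon gamma activates factors that bind the gamma-activated site (GAS). The genes switched on encode antiviral effectors, GTPases that act on intracellular pathogens, antigen presentation machinery and chemokines, and many of them are shared between both types of interferon. In injured muscle, satellite cells, the Pax7-expressing stem cells of the fibre, become dividing myoblasts amid infiltrating immune cells.

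Both libraries were made with the 10x Chromium 3′ v3.1 kit from Pax3GFP/+ mice, in which GFP reports the paired-box factor Pax3. The labels' genotype field reads wild-type for both, so the reporter allele is the only allele named. Cells of the biceps and the rectus femoris (written recto femoris in the labels) were isolated 5 days after injury and sorted into a GFP+ (PAX3+) fraction and a GFP− (PAX3−) fraction, with 20 000 cells loaded for each. The labels are silent on the kind of injury, the age and number of animals, any pooling of animals and the share of each muscle in each fraction. The muscle of origin and the fraction cannot be told apart. With 1 library per fraction there was no replicate and no test was run. The intervals below are exact 95% intervals that cover counting error only.

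The 6 rule genes chose the members, so their values are a description. Ifit1 and Ifit3, which encode proteins that bind foreign RNA, stand near each other on mouse chromosome 19. Rsad2 encodes the antiviral enzyme viperin. Iigp1 and Gbp2 encode an immunity-related GTPase and a guanylate-binding protein, both of which act at vacuoles that hold pathogens. Cxcl10 encodes a chemokine that draws T cells through the receptor CXCR3. Promoter windows from 250 bases before to 50 bases after the annotated start were read from RefSeq (build GRCm38.p6), and 5 of the 6 rule genes had a window.

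The ISRE core was searched as GAAANNGAAA on both strands and the GAS core as TTCNNNGAA, which reads the same on both strands. All 5 rule genes with a window held the ISRE core and 0 held the GAS core, whereas 3.99% of the 27025 genes with a window held the ISRE core and 9.55% held the GAS core. Stretches around the matches are shown because these sequences are the elements through which the interferon signal is known to reach such genes. They run 5′ to 3′ on the gene's strand, with every base of a match in capitals. A match on the opposite strand reads TTTCNNTTTC, and adjacent capitals can hold overlapping matches.

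Ifit1, chr19:34640735-34640863, plus strand: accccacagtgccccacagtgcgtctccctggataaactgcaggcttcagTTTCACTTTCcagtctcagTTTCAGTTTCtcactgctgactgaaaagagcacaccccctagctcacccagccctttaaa

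Ifit3, chr19:34583323-34583466, plus strand: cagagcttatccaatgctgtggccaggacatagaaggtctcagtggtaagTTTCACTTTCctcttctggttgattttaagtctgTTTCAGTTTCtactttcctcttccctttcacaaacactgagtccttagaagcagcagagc

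Rsad2, chr12:26456513-26456622, minus strand: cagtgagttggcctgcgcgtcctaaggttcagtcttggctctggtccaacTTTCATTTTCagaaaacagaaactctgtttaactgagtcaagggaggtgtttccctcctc

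Gbp2, chr3:142620554-142620663, plus strand: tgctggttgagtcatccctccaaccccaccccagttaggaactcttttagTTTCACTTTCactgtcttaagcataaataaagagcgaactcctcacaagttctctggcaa

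Cxcl10, chr5:92349043-92349139, minus strand: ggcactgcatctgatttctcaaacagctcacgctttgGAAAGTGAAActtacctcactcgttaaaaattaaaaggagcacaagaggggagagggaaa

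Isg15, chr4:156200825-156200946, minus strand: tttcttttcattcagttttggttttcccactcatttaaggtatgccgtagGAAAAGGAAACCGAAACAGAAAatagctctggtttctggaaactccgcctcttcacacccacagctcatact

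Igtp, chr11:58199461-58199581, plus strand: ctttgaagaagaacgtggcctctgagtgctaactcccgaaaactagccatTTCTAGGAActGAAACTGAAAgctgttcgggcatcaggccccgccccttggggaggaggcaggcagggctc

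Irf1, chr11:53769874-53769982, plus strand: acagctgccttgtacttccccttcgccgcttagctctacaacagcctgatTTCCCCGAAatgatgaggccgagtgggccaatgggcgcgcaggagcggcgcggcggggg

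The first match began at position -104 from the annotated start in Ifit1 and at -156 in Ifit3, each with 2 matches, at -120 in Rsad2, at -59 in Gbp2 and at -213 in Cxcl10. Isg15, Igtp and Irf1, which were not used to choose the cells, are shown beside them. Isg15 held 3 overlapping ISRE cores from -78, Igtp held a GAS core at -45 with an ISRE core next to it, and Irf1 held a GAS core at -90 and 0 ISRE cores. Among the interferon-stimulated genes outside the rule, 38 of the 75 with a window held the ISRE core (50.7%) and 18 held the GAS core (24%). Of the guanylate-binding protein and immunity-related GTPase genes, 9 of 10 held the ISRE core and 6 held the GAS core, against 2 and 2 of 35 genes of G2 and mitosis. These matches describe the letters of the windows and were not tested as binding sites.

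Members made up 1.89% of the 529 gated cells of the GFP+ library (interval 0.910 to 3.45%) and 2.86% of the 2514 gated cells of the GFP− library (2.25 to 3.59%). The intervals overlapped. After each cell was thinned to 5000 UMIs, 7 of 470 GFP+ cells (1.49%, 0.601 to 3.04%) and 85 of 2367 GFP− cells (3.59%, 2.88 to 4.42%) reached the threshold, with 59 GFP+ and 147 GFP− shallower cells left out. Median depth was 12254 UMIs in GFP+ members, against 19309 in the other GFP+ cells, and 14516 UMIs in GFP− members, against 14978.5 in the other GFP− cells. The 5 cells just inside the threshold had 10.1 to 11.1 rule-gene UMIs per 10000 and the 5 just outside had 9.69 to 9.90, so the boundary cuts a continuous range. The summed level reached 44.3 per 10000 in the highest GFP+ member and 190 in the highest GFP− member, with medians of 16.4 and 21.1.

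Facts of the libraries bear on these values as follows. The barcodes held 13928952 UMIs in the GFP+ library and 49709323 in the GFP− library. Pax3, the gene behind the sort, stood at 14.6 CPM (counts per 1000000 UMIs) in GFP+ members and 21.9 CPM in the other GFP+ cells, against 5.33 CPM in GFP− members and 5.10 CPM in the other GFP− cells. Its level in members rests on few cells, as 1 of 10 GFP+ members and 5 of 72 GFP− members had a Pax3 UMI. The libraries shared 2 barcodes among cells, and 0 members were among them. A doublet caller marked 3 cells in each library and 0 members, and 2 GFP− members were among the deepest 5% of cells.

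Against the label of myoblasts, 77 of the 82 members carried at least 3 UMIs per 10000 of Pax7, Myf5, Myod1, Myog, Cdh15, Des, Chodl and Megf10 (median 20.8), a level like that of the other gated cells (median 21.9). The other 5 members, all in the GFP− library, had 0 UMIs of these 8 markers. Of these 5 cells, 3 held endothelial transcripts, with 26, 1 and 53 UMIs of the junction gene Cdh5 and 677, 46 and 617 UMIs of Fabp4. The remaining 2 held transcripts of fibro-adipogenic cells, with 222 and 156 UMIs of Col3a1. The remaining 67 GFP− members are called the myogenic members, and many of the values below are also given for them alone. Genes of these cell types topped the GFP− ratios: all 1340 Fabp4 UMIs and all 332 Sfrp2 UMIs of GFP− members lay in these 5 cells, and both genes stood at 0 UMIs in the 10 GFP+ members.

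Markers of other cell types were then read in the members. Of the 10 macrophage markers, Lyz2, C1qa, C1qb and Tyrobp were limited by the gate itself, so their low level says nothing more. Cd74, the invariant chain of class II molecules, had 1 UMI (7.28 CPM) in GFP+ members, against 517 UMIs (48.4 CPM) in the other GFP+ cells. In GFP− members it had 0 UMIs, against 56 UMIs (1.35 CPM) in the other GFP− cells. Among GFP+ cells with myogenic markers Cd74 had 1 UMI in members, against 36 UMIs (3.45 CPM) in the other cells. That ratio of 2.11 (0.0520 to 12.5) is too wide to give a direction. The remaining 5 macrophage markers had 0 UMIs in GFP+ members, against 55 UMIs (5.15 CPM), and 2 UMIs (1.78 CPM) in GFP− members, against 130 UMIs (3.14 CPM); 0 UMIs allow up to 21.8 CPM in the GFP+ members. All 10 summed to 7.28 CPM in GFP+ members, against 64.4 CPM, and to 7.10 CPM in GFP− members, against 8.91 CPM. Among cells with myogenic markers the GFP+ values were 7.28 CPM, against 17.8 CPM (0.409-fold, 0.0103 to 2.31). The GFP− values there were 7.71 CPM, against 8.79 CPM. The 5 endothelial markers summed to 215 CPM in GFP− members, against 9.01 CPM in the other GFP− cells, and to 4.82 CPM in the 67 myogenic members, against 4.44 CPM in the other myogenic cells. Markers of neutrophils, dendritic cells and erythroid cells were at 0 UMIs in the members of both libraries, and those of T and natural killer cells and of B cells were at 0 UMIs in GFP+ members and at 3 UMIs each in GFP− members.

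Iigp1 was present in 10 of 10 GFP+ members and in 63 of 72 GFP− members. It stood at 1339 CPM in GFP+ members, against 21.3 CPM in the other GFP+ cells (63.0-fold, 51.6 to 76.8), and at 764 CPM in GFP− members, against 23.02 CPM in the other GFP− cells (33.2-fold, 30.2 to 36.4). Barcodes of at most 100 UMIs, which hold free RNA, had 30.05 CPM of Iigp1 in the GFP+ library and 42.5 CPM in the GFP− library, so the other cells lay below the free RNA and the members far above it.

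Cxcl10 showed the reverse order between fractions. Members held 204 CPM of Cxcl10 in the GFP+ library, against 9.09 CPM in the other cells (22.4-fold, 14.2 to 34.5), and 1848 CPM in the GFP− library, against 14.9 CPM in the other cells (124-fold, 114 to 136). Cxcl10 UMIs were found in 4 of 10 GFP+ members and 50 of 72 GFP− members, with free RNA at 37.2 and 67.2 CPM. The chemokine was unevenly spread, since 8 cells held 57.2% of the Cxcl10 UMIs of GFP− members. The 72 members held 77.2% of the 2697 Cxcl10 UMIs of all gated GFP− cells, whereas the 10 GFP+ members held 22.4% of 125.

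The antiviral rule genes followed in both libraries. Ifit1 stood at 189 CPM in GFP+ members, against 8.52 CPM in the other cells, and at 397 CPM in GFP− members, against 6.93 CPM in the other cells. Ifit3 stood at 269 CPM in GFP+ members, against 4.87 CPM, and at 271 CPM in GFP− members, against 2.32 CPM. A close copy, Ifit3b, lies near it, and reads that match both copies could have been split or dropped in counting. Rsad2 was found in 2 of 10 GFP+ members and 45 of 72 GFP− members, and Gbp2 in 7 of 10 and 47 of 72.

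**Figure D1:**
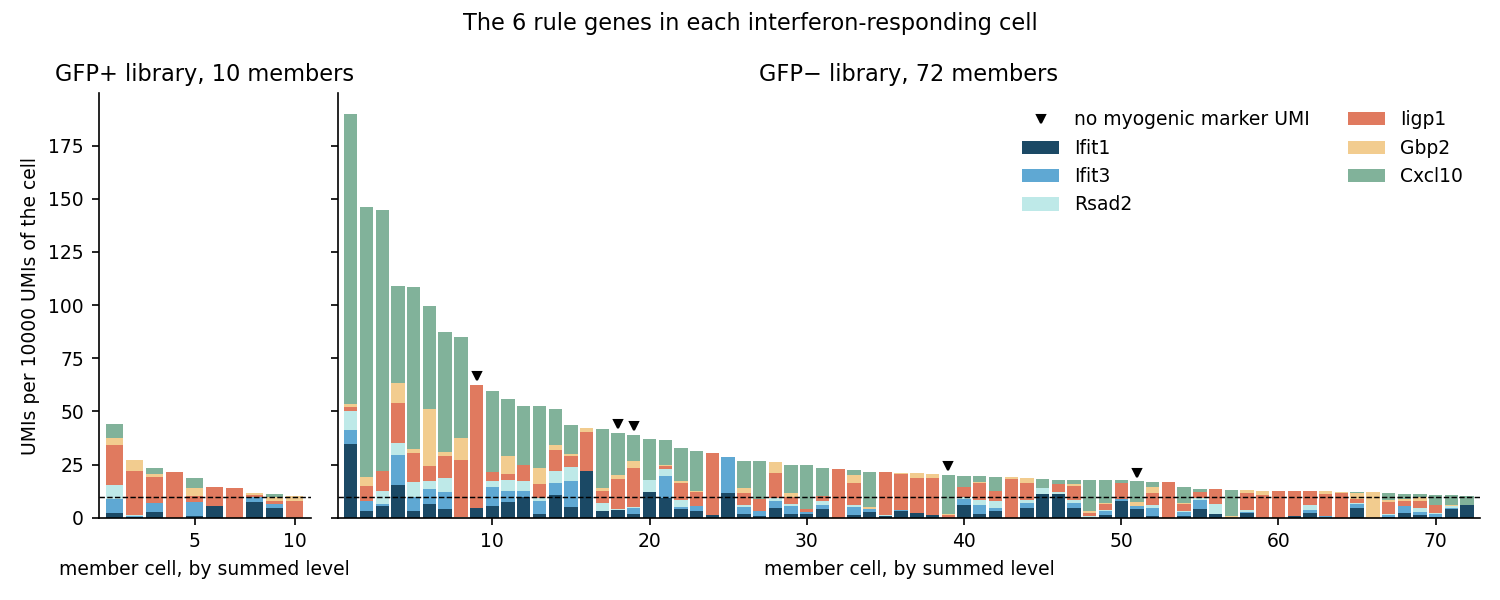
Each bar is 1 member cell, ordered by summed level within the GFP+ library (left, 10 cells) and the GFP− library (right, 72 cells), and its coloured parts are the UMIs of each rule gene per 10000 UMIs of the cell. The dashed line is the threshold of 10, triangles mark the 5 members with 0 myogenic marker UMIs, and Cxcl10 makes up most of the tallest GFP− bars, while Iigp1 makes up most of several short ones.

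The members differed in which rule genes they held. At least 3 of the 6 were present in 6 of 10 GFP+ members and 59 of 72 GFP− members, and all 6 in 1 GFP+ and 23 GFP− members. Both an antiviral gene (Ifit1, Ifit3 or Rsad2) and a GTPase gene (Iigp1 or Gbp2) were present in 7 of 10 GFP+ and 59 of 72 GFP− members. A GTPase gene without an antiviral gene was present in 3 GFP+ and 9 GFP− members, and an antiviral gene without a GTPase gene in 0 GFP+ and 4 GFP− members.

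The wider interferon programme, which the rule did not use but which was read in the same cells, accompanied the rule genes. Of 98 listed interferon-stimulated genes outside the rule, 93 were among the features, and per cell they summed to a median of 83.9 per 10000 UMIs in GFP+ members (range 22.2 to 237), against 22.1 in the other GFP+ cells. GFP− members had a median of 94.2 (range 23.8 to 273), against 24.2 in the other GFP− cells. The groups overlapped: 5 of 10 GFP+ members and 56 of 72 GFP− members lay above the 95th percentile of the other cells, and 16 other GFP+ cells and 20 other GFP− cells lay above the members' median.

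The level of these genes in GFP− cells climbed along the rule score below the threshold too. It was 2317 CPM in cells with 0 rule-gene UMIs, 3835 CPM at 1 to 2 per 10000, 5579 CPM at 5 to 10, 7090 CPM at 10 to 15 and 15812 CPM above 100. GFP+ values were 2123 CPM in cells with 0 rule-gene UMIs, 9702 CPM in the 17 cells at 5 to 10 and 6911 CPM in the 5 members at 10 to 15. Among GFP+ cells, then, those just under the threshold were not lower than the members just above it.

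**Figure D2:**
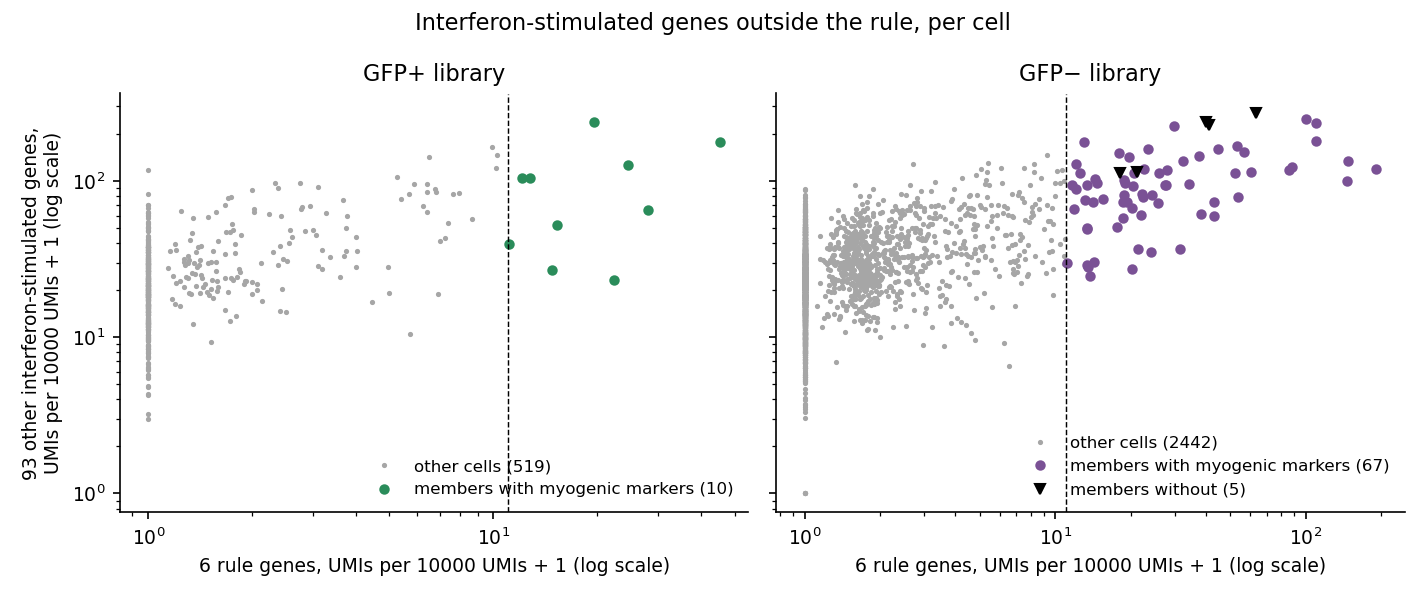
Each point is a cell of the GFP+ library (left) or the GFP− library (right), with the 6 rule genes on the horizontal axis and the 93 other interferon-stimulated genes on the vertical axis, both as UMIs per 10000 UMIs plus 1 on log scales. Large points are members with myogenic markers, triangles are the 5 members without and grey points are other cells; the dashed line is the threshold, and members sit in the upper part of the range of the other cells, with overlap.

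Summed over the 93 genes, the level was 10199 CPM in GFP+ members, against 2876 CPM in the other GFP+ cells (3.55-fold, 3.36 to 3.74), and 10442 CPM in GFP− members, against 2814 CPM in the other GFP− cells (3.71-fold, 3.64 to 3.78). With a mean of 10 CPM or more over both classes required, 52 of 60 listed genes reached a 2-fold higher level in GFP+ members and 60 of 63 in GFP− members, where 13.2% and 3.62% of all genes at that level were. The median log2 ratio was 2.54 in the GFP+ library and 2.56 in the GFP− library, beside 0.08 and -0.01 over all genes. Among the 67 myogenic members the count was 59 of 63, with 1.95% of all genes and a median of 2.43.

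A filter on the mean can let a gene in through the members alone, so the counts were also taken over genes with at least 10 CPM in the other cells. There 28 of 37 listed genes reached 2-fold in GFP+ members (7.96% of all genes at that level) and 32 of 35 in GFP− members (1.61% of all genes at that level). The genes come from the same contrast as the rule and are given as a description.

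Antiviral effectors led the list by abundance. Isg15, a ubiquitin-like modifier, stood at 793 CPM in GFP+ members, against 89.2 CPM in the other GFP+ cells (8.90-fold, 7.23 to 10.9), and at 950 CPM in GFP− members, against 55.1 CPM in the other GFP− cells (17.2-fold, 16.02 to 18.6). After thinning to 5000 UMIs, an Isg15 UMI was found in 6 of 8 GFP+ members (75%) and 16.02% of the other GFP+ cells, and in 80.6% of GFP− members and 15.04% of the other GFP− cells. Unthinned, the shares were 60% and 26.4% in the GFP+ library and 86.1% and 27.6% in the GFP− library.

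Ifitm3, a membrane protein that blocks virus entry, stood at 2846 CPM in GFP+ members, against 1077 CPM, and at 2932 CPM in GFP− members, against 1151 CPM, ratios of 2.64 and 2.55. Bst2, which tethers budding virus to the cell, was 5.82-fold higher in GFP+ members and 5.90-fold higher in GFP− members. Oasl2, a relative of the oligoadenylate synthetases, was 7.24-fold and 10.1-fold higher, and Ly6e 2.71-fold and 3.32-fold higher. Other members of the list stayed close to the other cells: Ifitm2 had ratios of 1.26 and 1.42 and Ifi27 of 1.27 and 1.02. Ly6a had a ratio of 1.13 on 3 UMIs in GFP+ members and of 15.5 in GFP− members, and of 4.51 in the 67 myogenic members.

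The guanylate-binding proteins and immunity-related GTPases had the highest summed ratio of the lists outside the rule shown in the plot of list sums. Their sum was 1070 CPM in GFP+ members, against 73.6 CPM (14.5-fold, 12.1 to 17.4), and 854 CPM in GFP− members, against 69.0 CPM (12.4-fold, 11.5 to 13.3). All 11 measured genes among GFP+ cells and all 10 among GFP− cells passed 2-fold, where 13.2% and 3.62% of all genes at that level did, with median log2 ratios of 4.28 and 3.90. Most of these genes met the 10 CPM mean through the members: 2 in the GFP+ library and 3 in the GFP− library had 10 CPM in the other cells, and all of those passed 2-fold. Gbp7 stood at 218 CPM in GFP+ members, against 16.5 CPM, and at 198 CPM in GFP− members, against 18.6 CPM. Irgm1, a regulatory GTPase of the family, stood at 233 CPM in GFP+ members, against 18.1 CPM, and at 145 CPM in GFP− members, against 15.05 CPM. Ratios in the GFP+ and GFP− libraries were 30.1 and 54.4 for Ifi47, 21.4 and 8.73 for Gbp3, 19.4 and 20.9 for Gbp6 and 61.1 and 47.6 for Gbp5. Igtp, which carries both motifs in its promoter, had a ratio of 3.48 (0.70 to 10.6) on 3 UMIs among GFP+ cells and of 21.6 among GFP− cells. Several of these genes are close copies of each other, and the labels do not say how reads matching more than 1 copy were counted.

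Of the genes that carry the interferon signal, the interferon regulatory factors Irf7 and Irf1, which interferon itself induces, were higher in members, and the receptor and kinase genes named here were closer to the other cells. Irf7, which amplifies type I interferon production, stood at 313 CPM in GFP+ members, against 17.05 CPM (18.4-fold, 12.9 to 25.7), and at 137 CPM in GFP− members, against 11.4 CPM (12.02-fold, 9.95 to 14.4). The intervals of Irf7 lay well above 1 in both libraries, which is a statement on counting error alone.

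Irf1, whose promoter holds the GAS core, had ratios of 2.36 (1.21 to 4.17) in the GFP+ library and 3.73 (3.03 to 4.56) in the GFP− library. Jak1, a kinase of both receptor types, had ratios of 1.47 (0.85 to 2.37) and 1.44 (1.22 to 1.69), and the type I receptor chain Ifnar2 of 1.40 (0.64 to 2.69) and 1.35 (1.05 to 1.70). Over the list, 12 of 23 measured genes (GFP+) and 8 of 20 (GFP−) passed 2-fold, beside 13.2% and 3.62% of all genes, with a median log2 ratio of 1.03 and 0.48. Among the 67 myogenic members the count was 6 of 20, beside 1.95% of all genes, with a median of 0.35. Of the genes with 10 CPM in the other cells, 10 of 20 (GFP+) and 8 of 21 (GFP−) passed, beside 7.96% and 1.61% of all such genes. The feedback inhibitor Socs3 had a GFP+ ratio of 1.23 and a GFP− ratio of 1.54, and stood at 0.89 among the 67 myogenic members.

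Sensors of foreign nucleic acid split in a like way. Zbp1, a sensor of left-handed nucleic acid, stood at 211 CPM in GFP+ members, against 17.9 CPM (11.8-fold), and at 136 CPM in GFP− members, against 18.8 CPM (7.22-fold). The cytosolic RNA helicases Ifih1 and Ddx58, which encode MDA5 and RIG-I, were 6.73-fold and 6.35-fold higher in GFP+ members and 9.33-fold and 5.32-fold higher in GFP− members. Rnaseh2c, a subunit of a nuclease that removes RNA from hybrids, had ratios of 1.28 and 0.68. In all, 5 of 12 measured sensors and adaptors passed 2-fold among GFP+ cells, 7 of 12 among GFP− cells and 6 of 12 among the myogenic ones, beside 13.2%, 3.62% and 1.95% of all genes. With 10 CPM in the other cells required, the counts were 3 of 10 (GFP+) and 5 of 10 (GFP−), beside 7.96% and 1.61%.

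**Figure D3:**
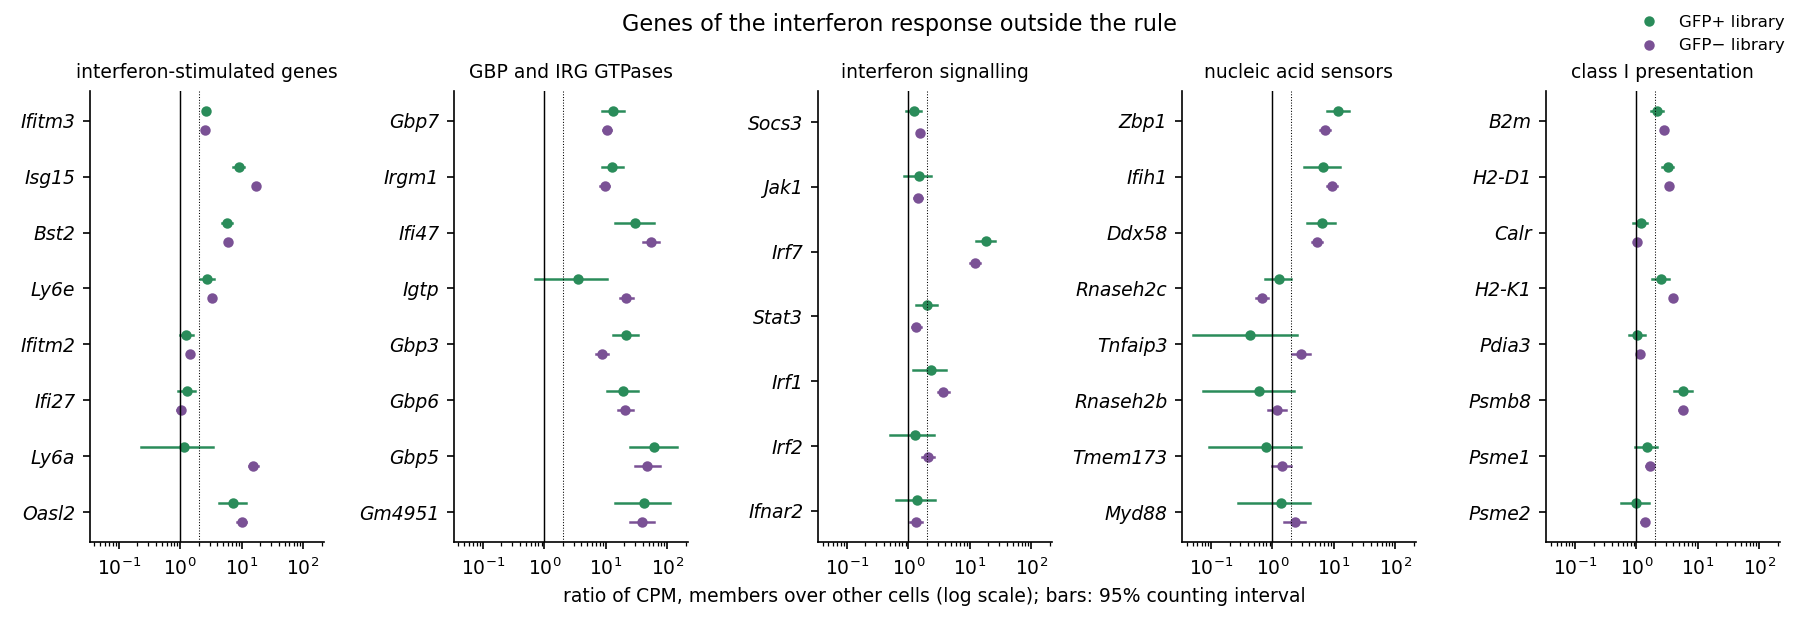
Points are ratios of CPM of members over other cells on a log scale for up to 8 genes of each of 5 lists, taken from those of highest CPM in GFP− members, with GFP+ values above GFP− values and bars for the 95% counting interval. The solid line marks equality and the dotted line 2-fold; all GTPase genes lie to the right of 2-fold, while Ifitm2, Ifi27, Calr, Pdia3, Jak1 and Ifnar2 lie near equality.

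Class I antigen presentation was higher by smaller factors. The 22 listed genes summed to 4215 CPM in GFP+ members, against 1923 CPM (2.19-fold, 2.01 to 2.38), and to 4252 CPM in GFP− members, against 1978 CPM (2.15-fold, 2.09 to 2.21). Among the 67 myogenic members the ratio was 1.81 (1.75 to 1.87). A 2-fold higher level was reached by 14 of 18 measured genes in GFP+ members, 16 of 21 in GFP− members and 11 of 19 in the myogenic members, beside 13.2%, 3.62% and 1.95% of all genes. With 10 CPM in the other cells required, the counts were 12 of 17 (GFP+) and 11 of 15 (GFP−), beside 7.96% and 1.61%.

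Psmb8, an inducible proteasome subunit, stood at 298 CPM in GFP+ members, against 51.7 CPM (5.77-fold), and at 231 CPM in GFP− members, against 40.4 CPM (5.71-fold). B2m, the light chain of class I molecules, had ratios of 2.19 and 2.77, and H2-K1, a heavy chain, of 2.51 and 3.93. Without the 5 cells that lacked myogenic markers, the GFP− ratios were 2.23 for B2m and 1.88 for H2-K1, against 5.50 for Psmb8. The chaperones Calr and Pdia3, which serve all folding glycoproteins, had GFP+ ratios of 1.17 and 1.03 and GFP− ratios of 1.03 and 1.15. The 6 class II genes summed to 14.6 CPM in GFP+ members, against 154 CPM in the other GFP+ cells, and to 6.21 CPM in GFP− members, against 5.02 CPM in the other GFP− cells. The GFP+ value of the other cells rested on 1 cell, which held 1500 of their 1649 class II UMIs. Among cells with myogenic markers class II genes stood at 14.6 CPM in GFP+ members (2 UMIs), against 13.98 CPM in the other GFP+ cells (1.04-fold, 0.125 to 3.83), a range too wide to give a direction.

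Chemokines and cytokines differed between the libraries, and a few cells held most of them. The listed genes summed to 1201 CPM in GFP+ members, against 2542 CPM (0.473-fold, 0.403 to 0.551), and to 4059 CPM in GFP− members, against 2958 CPM (1.37-fold, 1.33 to 1.41). At least 2-fold higher were 2 of 10 measured genes in the GFP+ library, 8 of 15 in the GFP− library and 4 of 12 among the 67 myogenic members, beside 13.2%, 3.62% and 1.95% of all genes. With 10 CPM in the other cells required, 1 of 11 genes was higher and 4 were lower among GFP+ cells. Over all genes at that level there, 1408 of 7698 were at most 0.5-fold, and 525 had 0 UMIs in GFP+ members. The counting interval lay below 1 for 4 of the 11 listed genes and for 309 of the 7698. Among GFP− cells 2 of 9 genes were higher. The GFP+ counts of higher genes thus lay near the share over all genes. Spp1, which encodes osteopontin and is made by matrix-rich myoblasts, dominates the sum except in GFP+ members. The GFP+ ratio of the sum leans on this gene, and a sum without it was not taken. Spp1 stood at 204 CPM in GFP+ members, against 1398 CPM, and at 2147 CPM in GFP− members, against 1987 CPM.

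Ccl5, a chemokine for T cells and monocytes, had 131 UMIs in 6 GFP− members, 112 of them in 3 cells, and 0 UMIs in GFP+ members. Its GFP− ratio was 17.3, and 18.7 among the 67 myogenic members. Ccl2 and Ccl7, which draw monocytes, had 280 and 250 UMIs in GFP− members, but 207 and 221 of these lay in cells without myogenic markers. In the 67 myogenic members they stood at 70.4 CPM and 27.9 CPM, against 11.1 CPM and 2.14 CPM in the other myogenic cells. These levels lean on few cells: 1 myogenic member held 28 Ccl7 UMIs, and only 3 of all GFP− members had any. Of the 280 Ccl2 UMIs, 258 lay in 3 GFP− members. In GFP+ members Ccl2 had 7 UMIs, against 865 UMIs in the other GFP+ cells (0.63-fold, 0.25 to 1.3), and Ccl7 had 0, against 372. Il6 had 98 UMIs in GFP− members, 97 of them in the cells without myogenic markers, and its ratio among myogenic members was 1.04. Cxcl9, a relative of Cxcl10 that binds the same receptor, stood at 65.5 CPM in GFP+ members, against 3.84 CPM (17.1-fold, 7.29 to 35.6), and at 63.0 CPM in GFP− members, against 1.96 CPM (32.2-fold, 23.1 to 44.9). Of the 71 Cxcl9 UMIs of GFP− members, 28 lay in cells without myogenic markers, and the myogenic members stood at 41.4 CPM, against 1.89 CPM (21.9-fold, 14.7 to 32.2).

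The interferon genes themselves were almost undetected. Of 21 listed interferon genes, Ifnb1 was the only one with a UMI in a member: 4 UMIs, all in the GFP− member with the highest rule score, 190 per 10000. That cell held 261 Cxcl10 UMIs, 66 Ifit1 UMIs and 41 UMIs of the myogenic markers. Among the other gated cells, 2 GFP+ cells and 1 GFP− cell held a single UMI each of Ifnz. In the 137372 UMIs of the 10 GFP+ members 0 came from interferon genes, which allows a summed level of up to 21.8 CPM.

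Within the GFP− library, myogenic members with Cxcl10 differed from those without in more than Cxcl10. The split was made on a rule gene, so the values are a description. The 46 cells with a Cxcl10 UMI had a median depth of 15670.5 UMIs, against 12840 in the 21 cells without. Antiviral effectors outside the rule summed to 9856 CPM in cells with Cxcl10, against 5445 CPM in cells without (1.81-fold, 1.71 to 1.92). The GTPases summed to 867 CPM, against 762 CPM (1.14-fold, 0.963 to 1.35).

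Iigp1 ran the other way, at 555 CPM in cells with Cxcl10 and 1358 CPM in cells without (0.41-fold, 0.35 to 0.47). Cells without Cxcl10 had to reach the threshold through the other rule genes, so the rule itself favours a high Iigp1 level there. Genes of quiescent satellite cells summed to 893 CPM, against 1976 CPM (0.452-fold, 0.401 to 0.509), and contractile genes to 6022 CPM, against 2224 CPM (2.71-fold, 2.47 to 2.97). The spread of the contractile sum over cells was not taken. Among all GFP− members, 3 cells held 415 of the 417 Actc1 UMIs, and 3 cells held 264 of the 389 Tnnt2 UMIs. A few cells may therefore carry the contractile ratio. Genes of G2 and mitosis had the highest ratio of the lists compared, at 1383 CPM in cells with Cxcl10, against 326 CPM (4.24-fold, 3.35 to 5.43). Of their 1117 UMIs in cells with Cxcl10, 780 lay in 3 cells, and the median cell had 3.48 per 10000 UMIs, against 3.36. Myog UMIs were concentrated, with 449 of the 486 in GFP− members lying in 3 cells.

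A few members held Iigp1 and none of the other rule genes. GFP+ cells of this kind numbered 2, with 49 and 15 Iigp1 UMIs, and their other interferon-stimulated genes summed to 2335 CPM (1849 to 2910), against 2876 CPM in the other GFP+ cells. The GFP− library had 3, with 2 to 22 Iigp1 UMIs, at 3009 CPM (2371 to 3766), against 2814 CPM in the other GFP− cells. Members with at least 3 rule genes stood at 13516 CPM in the GFP+ library and 11124 CPM in the GFP− library. Both intervals of the Iigp1-only members held the level of the other cells of their library. With 2 and 3 cells they are too wide to give a direction. Per cell, these members had 22.2 to 25.8 such UMIs per 10000 in the GFP+ library, against a median of 22.1 in the other cells. The GFP− ones had 27.3 to 50.04, against a median of 24.2. Another 3 GFP+ cells and 25 GFP− cells below the threshold had at least 5 Iigp1 UMIs and no other rule gene. They stood at 2559 CPM (2212 to 2946) and 3454 CPM (3262 to 3653), the GFP− interval lying above the 2814 CPM of the other GFP− cells.

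To see which myogenic states the members came from, all gated cells were clustered without 198 interferon-related genes. The 11 clusters included quiescent satellite cell-like clusters 2 and 5, cycling-like cluster 3, committed myocyte-like cluster 4 and contractile-like cluster 9. Clusters 0 (with Fabp4, Fn1 and Spp1 among its 10 highest ratios) and 1 (with Plagl1, Gpc3 and Igf2 among its 10 highest) were left unnamed. GFP+ members fell into cluster 1 (5 of 134 cells), cluster 5 (3 of 121), cluster 2 (1 of 37) and cluster 4 (1 of 43). GFP− members fell mainly into cluster 0 (27 of 640 cells, 4.22%, 2.80 to 6.08%) and cluster 1 (19 of 660, 2.88%, 1.74 to 4.46%), with 3 of 236 in the cycling-like cluster (1.27%, 0.263 to 3.67%) and 3 of 235 in the committed myocyte-like cluster (1.28%). The 27 in cluster 0 include the 3 members with endothelial transcripts, and among cells with myogenic markers the count there was 24 of 630 (3.81%, 2.46 to 5.62%). Members were thus spread over several of these clusters. Because the genes that define the members were left out, the clustering was not suited to show whether they form a group of their own. Clusters 6 and 7 held 2 and 7 GFP− members, cluster 2 held 7, cluster 9 held 3 and cluster 5 held 1, and cluster 6, led by fibro-adipogenic genes, held both members with such transcripts.

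**Figure D4:**
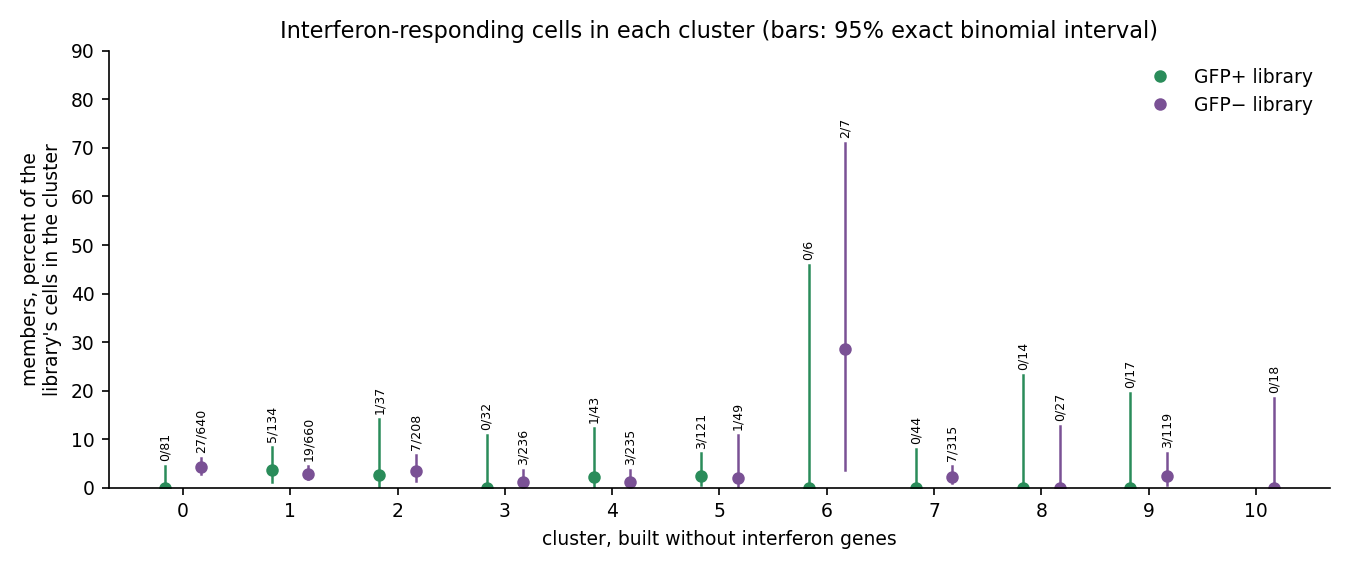
Points show members as a percent of each library's gated cells in each of 11 clusters built without interferon genes, with exact 95% binomial intervals and the counts written above, GFP+ left of GFP− in each pair. Most clusters lie between 0 and 5%; the point at 28.6% is 2 of 7 cells, with an interval of 3.67 to 71.0%.

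Within clusters the interferon-stimulated genes outside the rule kept their distance from the other cells in most cases. Among GFP− cells the ratio of members to others was 3.58 in cluster 0 (3.16 with myogenic cells alone), 3.002 in cluster 1, 3.37 in cluster 2, 3.08 in cluster 3, 3.33 in cluster 4, 3.69 in cluster 7 and 7.19 in cluster 9. Clusters 3, 4 and 9 had 3 members each, and 1 cell held 424 of 790, 160 of 287 and 405 of 603 of these UMIs. Their ratios therefore lean on single cells. Among GFP+ cells the ratio was 4.77 (4.45 to 5.10) in cluster 1 and 1.24 (0.954 to 1.59) in cluster 5. The value in cluster 5 rests on 3 members with 65 of these UMIs. Of the 65, 28 lay in 1 cell, in which Iigp1 was the only rule gene found. GFP+ cells of cluster 5 were also shallow, with a median of 6365 UMIs. What lies behind the lower ratio was not tested.

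Transcripts of commitment and fusion did not all take the same direction, and the drivers Myog, Myod1 and Mymk were lower in members. Myog, which drives terminal differentiation, had 6 UMIs (43.7 CPM) in GFP+ members, against 985 CPM in the other GFP+ cells (0.04-fold, 0.02 to 0.10), and stood at 431 CPM in GFP− members, against 809 CPM (0.53-fold, 0.49 to 0.58). Myod1, the determination factor of activated myoblasts, stood at 21.8 CPM in GFP+ members, against 109 CPM (0.20-fold, 0.04 to 0.59), and at 59.5 CPM in GFP− members, against 104 CPM (0.57-fold, 0.44 to 0.73). Mymk, which encodes the fusion protein myomaker, had 0 UMIs in GFP+ members, against 1147 UMIs in the other GFP+ cells, and a GFP− ratio of 0.45 (0.33 to 0.60). Mef2c, a factor that acts with the myogenic regulators, was higher, with ratios of 3.21 (1.02 to 7.70) on 5 UMIs in the GFP+ library and 2.05 (1.54 to 2.69) in the GFP− library, and of 1.54 (1.08 to 2.13) among the 67 myogenic members. Ttn, the giant sarcomere protein, had ratios of 1.296 (1.04 to 1.59) and 0.69 (0.63 to 0.75). Among myogenic GFP− members Cdkn1c, a cell cycle inhibitor, Tnnt2 and Actc1 had ratios of 0.98 (0.94 to 1.02), 0.98 (0.89 to 1.09) and 1.02 (0.92 to 1.12), and Myh3, the embryonic myosin, of 1.29 (1.01 to 1.64). Such sums do not describe a typical member. Over all GFP− members, 3 cells held 415 of the 417 Actc1 UMIs, 3 held 264 of the 389 Tnnt2 UMIs and 3 held 449 of the 486 Myog UMIs. The list of differentiation and fusion genes summed to ratios of 0.727 (0.658 to 0.803) in the GFP+ library, 0.889 (0.863 to 0.916) in the GFP− library and 0.944 (0.916 to 0.973) among the myogenic members.

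Pax7 was higher in members and Myf5 was not lower. Pax7, which marks satellite cells, stood at 429 CPM in GFP+ members, against 203 CPM (2.12-fold, 1.61 to 2.75), and at 171 CPM in GFP− members, against 146 CPM (1.17-fold, 1.01 to 1.35). Myf5 had ratios of 1.08 (0.78 to 1.45) and 1.22 (1.07 to 1.37). After thinning, Pax7 was found in 8 of 8 GFP+ members and 58.7% of the other GFP+ cells, and in 50.7% of GFP− members and 48.4% of the other GFP− cells. Cells over the macrophage limit, which should lack it, showed it in 0 of 68 GFP+ cells and 2 of 44 GFP− cells (4.55%), at median depths of 13545 and 8086 UMIs. Unthinned shares were 90% and 80.5% in the GFP+ library and 70.8% and 72.3% in the GFP− library. Myog was found after thinning in 1 of 8 GFP+ members and 19.5% of the other GFP+ cells, and in 11.9% of GFP− members and 22.9% of the other GFP− cells, beside 2 of 44 GFP− cells over the macrophage limit.

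As lists, the 12 Pax, Six-family and myogenic factors summed to a ratio of 0.598 (0.509 to 0.699) in the GFP+ library and 0.776 (0.735 to 0.817) in the GFP− library. Myog made up 10518 of the 20654 UMIs of that sum in the other GFP+ cells and 33510 of 67865 in the other GFP− cells; without it the ratios were 1.17 (0.993 to 1.38) and 1.01 (0.948 to 1.08), and the median log2 ratios of the whole list were -0.13 and -0.08. Contractile genes summed to 0.607 (0.548 to 0.671) and 0.818 (0.796 to 0.841). Quiescence genes summed to 1.44 (1.29 to 1.62) and 1.09 (1.03 to 1.15). Counted gene by gene, 11 of 16 measured contractile genes were at most 0.5-fold in GFP+ members and 2 of 19 in GFP− members, where 13% and 0.999% of all genes at that level were. Leaving out the cells without myogenic markers moved the contractile ratio of the GFP− library to 0.882.

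Genes of G2 and mitosis summed to 713 CPM in GFP+ members, against 1624 CPM (0.439-fold, 0.356 to 0.536), and to 1385 CPM in GFP− members, against 2290 CPM (0.605-fold, 0.575 to 0.636). The 67 myogenic members stood at 1149 CPM, against 2283 CPM (0.503-fold, 0.475 to 0.533). At most 0.5-fold were 14 of 36 measured genes in the GFP− library and 20 of 36 among the 67 myogenic members, where 0.999% and 1.14% of all genes at that level were. The median log2 ratio among the myogenic members was -1.10 beside -0.02 over all genes. Cdc20, an activator of the anaphase-promoting complex, stood at 10.7 CPM in GFP− members, against 38.5 CPM (0.28-fold, 0.14 to 0.48), and Ccnb1, the mitotic cyclin B1, at 13.3 CPM, against 39.8 CPM (0.33-fold, 0.19 to 0.55). Medians per cell lay closer together than the sums, as the median cell had 3.67 G2 and mitosis UMIs per 10000 in GFP+ members, against 3.83, and 3.47 in GFP− members, against 4.24. The highest cells reached 16.98 in GFP+ members, against 288 in the other GFP+ cells, and 142 in GFP− members, against 312 in the other GFP− cells.

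Within clusters the lower sum of G2 and mitosis genes was not general. Among GFP+ cells the ratio of members to others was 1.80 (1.32 to 2.41) in cluster 1 and 0.971 (0.441 to 1.86) in cluster 5. In GFP− cluster 0 it was 2.48 (2.26 to 2.72), but 0.786 (0.658 to 0.931) with myogenic cells alone. In the other GFP− clusters with at least 3 members, myogenic cells had ratios of 0.837 (0.666 to 1.04) in cluster 1, 1.09 (0.685 to 1.65) in cluster 2, 0.880 (0.819 to 0.945) in cluster 3, 0.375 (0.187 to 0.673) in cluster 4, 0.414 (0.343 to 0.496) in cluster 7 and 1.14 (0.791 to 1.59) in cluster 9. The cycling-like cluster 3, with 3 of the 72 GFP− members, stood at 8435 CPM of these genes in its members, against 9584 CPM in its other cells. Here too single cells weighed: 1 member held 503 of the 780 UMIs in GFP− cluster 3, and 1 held 22 of the 48 in GFP+ cluster 1.

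**Figure D5:**
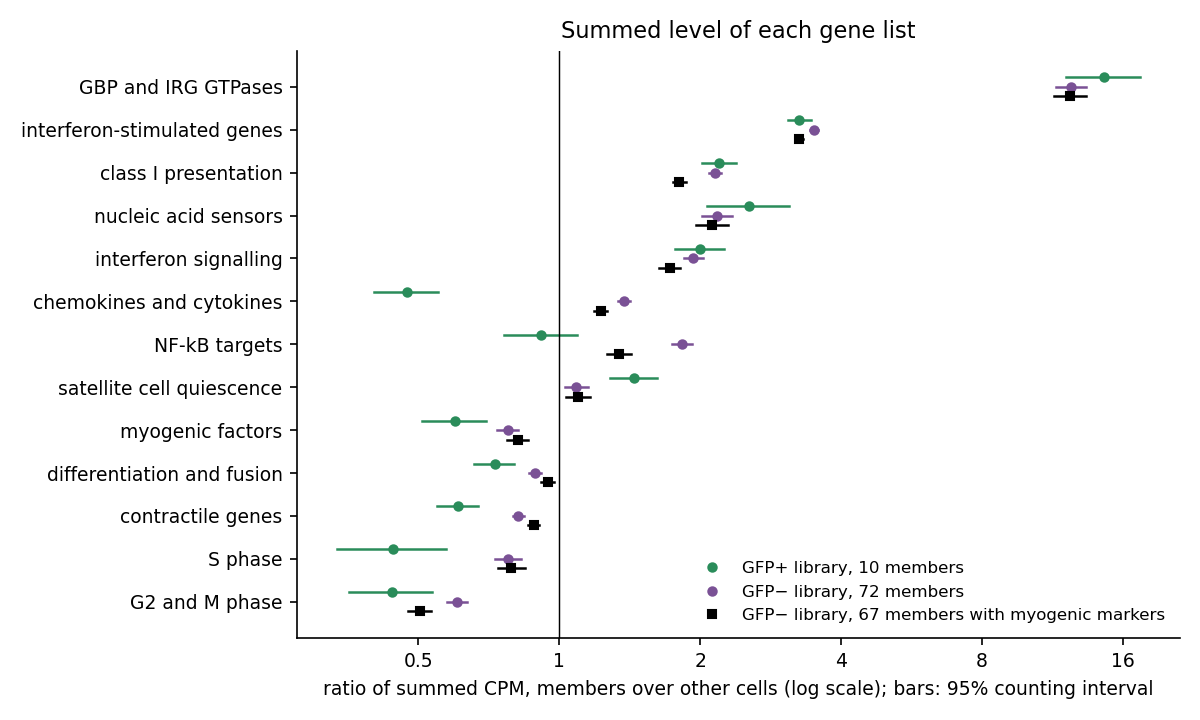
Points are ratios of summed CPM of members over other cells for each gene list on a log scale, with 95% counting intervals: GFP+ members, GFP− members and the 67 GFP− members with myogenic markers, each against the other cells of the same kind. GTPases lie at 12.3 to 14.5-fold, the other interferon-stimulated genes, class I genes, sensors and signalling genes at 1.72 to 3.49-fold, and G2 and M phase genes at 0.44 to 0.61-fold.

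Over all genes with at least 20 CPM in 1 class, 247 of 6104 were at least 2-fold higher in GFP− members (4.05%) and 41 were at most 0.5-fold (0.672%). Among the 67 myogenic members, 130 of 5996 were higher (2.17%) and 51 lower (0.851%). In the GFP+ library 894 of 6505 were higher (13.7%) and 745 lower (11.5%), but 20 CPM in the 137372 UMIs of its members is about 3 UMIs, and with TMM scaling the split was 649 higher and 980 lower. That scaling moved the log2 ratio of every gene by -0.17 in the GFP+ library and by -0.03 in the GFP− library.

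Outside the lists, the highest ratios among myogenic GFP− members included further genes known from antiviral defence. Parp10, a mono-ADP-ribosyltransferase, had 31 UMIs and a ratio of 8.32 (5.46 to 12.3), with 7.42 in the GFP+ library. Trim34a and Trim12a, of the TRIM family of ubiquitin ligases, had ratios of 7.04 and 5.35, with 19 and 4.85 in the GFP+ library. Zc3hav1, which encodes the zinc-finger antiviral protein, had a ratio of 2.80 (2.18 to 3.54). AW011738, Tmem140, Tent5a, Trim12c, Mitd1, Slc25a22 and Nampt were also among the 12 highest, at 2.51 to 5.05. Over all 72 members the 12 highest included Sfrp1, Tnfaip6, Ly6c1, Col15a1, Egfl7, Lmo1 and Dpt at 5.08 to 43.6, but at 0 to 1.67 without the 5 cells that lacked myogenic markers. The 12 lowest over all 72 members ran from 0.13 for Tnnc1, the slow troponin C, to 0.38 for Anln, and also held Plxna1, Cdc20, Utp14b, Dbf4, Ckap2, Ccnb1, Fam98a, Cenpa, Tk1 and Ociad2.

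GFP+ members were last set against GFP− members. At least 2-fold higher in GFP+ members were 854 of 6689 genes (12.8%) and at most 0.5-fold 1001 (15%). The interferon-stimulated genes outside the rule did not separate the fractions as a sum, at 10199 CPM in GFP+ members and 10442 CPM in GFP− members (0.977-fold, 0.923 to 1.03). The rule genes summed to 2329 CPM and 3657 CPM (0.637-fold, 0.567 to 0.714), but this ratio leans on Cxcl10, at 204 and 1848 CPM. Iigp1 ran the other way, at 1339 and 764 CPM, and Gbp2 stood at 211 and 197 CPM. In the same order Ifit1 stood at 189 and 397 CPM, Ifit3 at 269 and 271 CPM and Rsad2 at 116 and 180 CPM. A sum without Cxcl10 was not taken. The highest ratios rested on few UMIs, such as 7 in GFP+ members and 3 in GFP− members for Ctf1, a cytokine of the interleukin-6 family, and for Aldh1a1, a retinal dehydrogenase.

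The lowest ratios included Fabp4 and Sfrp2 from the cells without myogenic markers, and contractile genes. Actc1, the cardiac actin made in immature fibres, had 1 UMI in GFP+ members and 417 in GFP− members (0.02-fold), 415 of these in 3 cells. Tnnt2, the cardiac troponin T, stood at 29.1 CPM in GFP+ members and 345 CPM in GFP− members (0.08-fold, 0.02 to 0.22), where the other cells of the fractions had a ratio of 0.79 (0.76 to 0.82). Among myogenic members Spp1 stood at 204 CPM in GFP+ members and 2330 CPM in GFP− members (0.09-fold, 0.06 to 0.13), with a ratio of 0.70 among the other cells. The 28 Spp1 UMIs of GFP+ members lay in 2 cells. Cluster 0, which Spp1 helps to define, held 0 of the 10 GFP+ members (0 to 30.8%) and 15.6% of the other GFP+ cells. It held 24 of the 67 myogenic GFP− members. With 10 cells, the absence of GFP+ members from it cannot be told from a low share. Quiescence genes summed to 2235 CPM in GFP+ members and 1123 CPM in GFP− members (1.99-fold, 1.75 to 2.26), where the other cells stood at 1549 CPM in the GFP+ library and 1032 CPM in the GFP− library (1.501-fold, 1.47 to 1.53). The GFP+ values rest on 10 cells of 1 library.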

How the data were processed

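The deposited matrices hold raw UMI counts per feature and barcode, unfiltered, made by the authors with Cell Ranger 4, per the file headers; Cell Ranger, Seurat and mm10 are named in the submitters' processing notes. Cells, members and other cells were gated as described above. The members, gene lists and comparisons were chosen with earlier results of these data known. UMI counts were summed per library and class, divided by the class total (CPM), and compared as ratios with exact conditional 95% intervals. Shares have exact (Clopper-Pearson) 95% intervals. Intervals cover counting error only, and 1 library per fraction allows no test. The 3-count floor in the 137372 UMIs of GFP+ members limits what can be seen there.

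Named genes were the rule genes; at most 8 per interferon list by CPM in GFP− members; outside the lists, the 12 highest and 12 lowest GFP− ratios with the GFP+ ratio on the same side of 1; and the 8 highest and 8 lowest ratios between fractions. Mitochondrial, ribosomal, haemoglobin, Gm-numbered and Rik-named genes were left out of the last 2 sets. Clustering used 2000 variable genes, 30 principal components, 15 neighbours and Leiden resolution 0.6 in scanpy 1.11.5, without integration. Doublets were called with scanpy's scrublet and not removed from the main values. The TMM alternative used edgeR 4.0.16 on summed counts, for scaling only. Sums and intervals were made with scipy 1.17.1 and pandas 2.3.3 under Python 3.11.15 (numpy 2.4.6), scaling under R 4.3.3 and figures with matplotlib 3.10.9. The ratio code was tested on simulated data. Alternatives tried were other rule thresholds, rule genes, depth and macrophage limits, doublets, weights, TMM scaling and CPM filters. The limit to cells with myogenic markers, the sum without Myog, the 100 CPM filter and thinning before the rule were added after the data had been seen. The Cxcl10 split, the Iigp1-only cells and the motif examples Isg15, Igtp and Irf1 were chosen after their values were seen. Some genes of the lists are not reported here.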

Additional observations from a re-analysis of the deposited data

Results flagged for a closer look

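Cells outside the gates also reached the rule score of 10 per 10000 UMIs. Over the macrophage limit this was 13 of 75 cells in the GFP+ library (17.3%, 9.57 to 27.8%) and 12 of 57 in the GFP− library (21.1%, 11.4 to 33.9%). Over the mural limit alone it was 18 of 112 cells in the GFP− library (16.1%, 9.81 to 24.2%). The shares among gated cells were 1.89% and 2.86%. The interferon-stimulated genes outside the rule summed to 12192 CPM in all GFP+ cells over the macrophage limit, 11982 CPM in the GFP− ones and 8997 CPM in the mural-side cells, whether or not a cell reached the score.

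A single GFP+ cell over the macrophage limit held 7 Ifnb1 UMIs, together with 165 Lyz2 and 167 Cd74 UMIs and a rule score of 5.08 per 10000. These values are set apart because cells outside the gates enter no comparison of members with other cells.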

How the results depend on the processing

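Of 104 alternative values of shares, gene counts and medians, 28 moved. Only the medians, with 10 alternatives in each library, could turn direction, and 0 did. Shares and gene counts have no direction to turn. The share of members moved with the rule: in the GFP+ library to 5.10% at a threshold of 5 per 10000 and 0.756% at 20, and in the GFP− library to 6.05%, 1.55% and, without Gbp2 and Cxcl10 in the sum, 2.19%. The count of genes at least 2-fold higher in GFP+ members (894) became 324 at a threshold of 5, 1728 with a 5 CPM filter, 1703 with no filter and 139 with a 100 CPM filter; the lower count (745) became 162, 2146 with 5 CPM and 82 with 100 CPM. In the GFP− library the higher count (247) became 390 at a threshold of 20, 130 among cells with myogenic markers, 588 with 5 CPM, 1691 with no filter and 56 with 100 CPM. The lower count there (41) became 26 at a threshold of 5, 139 at 20, 106 without Gbp2 and Cxcl10, 297 with 5 CPM, 555 with no filter and 3 with 100 CPM. Between GFP+ and GFP− members the higher count (854) became 1769 with 5 CPM, 1585 with no filter and 124 with 100 CPM, and the lower count (1001) became 2484 and 116 with 5 and 100 CPM. Looser and stricter filters test more and fewer genes by construction; the cause of the other moves was not tested. The median log2 ratio of the interferon-stimulated genes outside the rule stayed between 2.37 and 2.67 in the GFP+ library and between 2.19 and 2.86 in the GFP− library. Sums that 1 gene or 1 cell carries turned direction: the ratio of the Pax, Six-family and myogenic factors, 0.598 in the GFP+ library and 0.776 in the GFP− library, became 1.17 and 1.01 without Myog, and that of class II genes in the GFP+ library, 0.0943, became 1.04 among cells with myogenic markers. No paired analysis was possible because each fraction is 1 library. Depth limits the GFP+ members most, where 1 UMI is 7.28 CPM.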

Other observations

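Gene groups that the text above leaves out gave these summed ratios of members over other cells, read from the same contrast and without a test. Targets of NF-kB, a pathway shared by many inflammatory signals, stood at 910 CPM in GFP+ members, against 994 CPM (0.915-fold, 0.761 to 1.09), and at 1530 CPM in GFP− members, against 836 CPM (1.83-fold, 1.74 to 1.92). Without the 5 cells that lacked myogenic markers the GFP− ratio was 1.35 (1.27 to 1.43). Immediate-early and dissociation stress genes had ratios of 1.05 (0.983 to 1.12) in the GFP+ library and 1.17 (1.14 to 1.2) in the GFP− library, and of 0.988 (0.959 to 1.02) among the 67 myogenic members. Genes of S phase had ratios of 0.442 (0.336 to 0.573) and 0.776 (0.728 to 0.827), and genes of matrix-making myoblasts of 0.630 (0.593 to 0.669) and 1.04 (1.02 to 1.05), with 0.996 (0.979 to 1.01) among the 67 myogenic members. The stress response of the endoplasmic reticulum stood at 1.27 (1.09 to 1.48) and 1.01 (0.948 to 1.08), targets of p53 and cell death genes at 0.896 (0.762 to 1.05) and 1.06 (1.01 to 1.12), and imprinted growth genes at 0.984 (0.908 to 1.06) and 1.03 (1.01 to 1.06).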
